A study of Rattus norvegicus with 6 samples.

Results

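The 10 genes for acetylcholine receptors were followed in the dorsal root ganglia (DRG) of rats with a constricted sciatic nerve. They are the nicotinic subunits Chrna1, Chrna3, Chrna4, Chrna6, Chrna7, Chrnb2, Chrnb3 and Chrnb4 and the muscarinic receptors Chrm2 and Chrm3, 10 of the 43350 gene rows in the table, chosen by symbol. Where a symbol had several rows the protein-coding row was taken, and then the row with the most counts. All 10 symbols had a row with counts.

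The rats were male Sprague-Dawley rats, bought at 6 to 8 weeks of age and housed for some weeks more. In the chronic constriction injury (CCI) group the left sciatic nerve was loosely ligated. In the sham group, whose labels give no treatment, the nerve was exposed without ligation. The L4 to L6 DRG of the operated side were taken on day 11, with 3 rats per group and, by the study's methods, 1 rat per library, although the labels speak of a pooled sample. Total RNA was sequenced after ribosomal depletion, and the 6 libraries held 75423546 to 87615743 counts. A DRG holds sensory neurons, satellite glia, Schwann cells, vessels and macrophages, and in such bulk samples fewer cells of a type and less RNA per cell cannot be told apart.

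Nicotinic receptors are pentameric cation channels opened by acetylcholine. Alpha subunits carry the main face of the binding site, and the beta subunits Chrnb2 and Chrnb4 complete it. Chrnb3 is an accessory subunit, best known beside Chrna6, and Chrna7 can form a channel on its own. Chrna1 belongs to the muscle type of receptor, at the neuromuscular endplate. Muscarinic receptors are coupled to G proteins. Chrm2 acts through Gi and Go and opens inwardly rectifying potassium channels, and Chrm3 acts through Gq and phospholipase C. Sensory neurons are known to express several receptors of both kinds.

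The promoters of 3 members are shown because they belong to the member with the largest difference, Chrna1, and to a pair of neuronal subunits that were lower after injury, Chrna7 and Chrnb4. Each is the RefSeq sequence on the rat build GRCr8, with 250 bases before and 50 bases after the start of the gene, read 5′ to 3′ on the gene's strand, here the minus strand. In Chrna1 (chr3:78877304-78877603) the capitals mark CAGCTG, an E-box of the form bound by muscle bHLH factors. In Chrna7 (chr1:126249080-126249379) and Chrnb4 (chr8:64333060-64333359) they mark GGGCGG, a GC box.
Chrna1: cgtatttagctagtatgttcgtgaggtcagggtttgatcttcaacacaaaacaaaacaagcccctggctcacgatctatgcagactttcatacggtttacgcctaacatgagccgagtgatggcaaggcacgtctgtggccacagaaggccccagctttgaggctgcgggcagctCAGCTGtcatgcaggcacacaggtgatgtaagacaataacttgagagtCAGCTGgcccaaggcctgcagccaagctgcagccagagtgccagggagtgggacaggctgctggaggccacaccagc
Chrna7: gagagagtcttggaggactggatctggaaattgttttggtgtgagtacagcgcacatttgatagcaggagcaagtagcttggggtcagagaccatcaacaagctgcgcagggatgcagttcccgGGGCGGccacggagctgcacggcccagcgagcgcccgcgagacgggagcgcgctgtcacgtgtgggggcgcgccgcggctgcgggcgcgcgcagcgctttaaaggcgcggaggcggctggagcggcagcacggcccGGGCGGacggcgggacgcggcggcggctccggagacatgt
Chrnb4: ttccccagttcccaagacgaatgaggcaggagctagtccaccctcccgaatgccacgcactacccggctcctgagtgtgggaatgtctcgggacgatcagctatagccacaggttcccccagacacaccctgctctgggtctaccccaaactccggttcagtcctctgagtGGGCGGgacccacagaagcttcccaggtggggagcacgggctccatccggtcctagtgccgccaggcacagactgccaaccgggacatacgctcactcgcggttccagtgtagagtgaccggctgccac

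CAGCTG, which reads the same on both strands, began 75 and 27 bases before the start of Chrna1. Of the 8 members with a promoter entry, 2 held it, Chrna1 with 2 copies and Chrm3 with 1, and it stood in 15.1% of the 33469 promoters of this length. GGGCGG, searched on both strands, stood in 7 of the 8 members, in all but Chrna1, and in 33.1% of all promoters. TGANTCA, the form bound by AP-1, was searched on both strands and is in none of the 8 and in 7.33% of all promoters. The motifs do not overlap as printed. These matches describe the letters in this window, which lies on another build than the files' coordinates below.

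The levels of the members spanned 2 orders. As mean FPKM over the 6 libraries, the authors' values scaled by row length and library size, Chrnb2 was the highest at 42.0 and Chrna1 the lowest at 0.36. Chrnb2 lay between 38.3 and 48.4 FPKM and stood above every value of the next subunit, Chrnb3, which had a mean of 15.8 FPKM and ranged from 13.1 to 17.4. The next levels ran close together. Chrna3 had 13.0 FPKM (10.6 to 15.3) and Chrna6 12.9 FPKM (11 to 15.8), and Chrna3 was above Chrna6 in 3 of 6 libraries, so this pair could not be ordered. Chrnb3 was above Chrna3 in 5 of 6 libraries, and Chrna6 was above Chrna7 (10.9 FPKM, 8.61 to 12.5) in 6 of 6, though the ranges of both pairs overlapped. Chrna7 was above Chrm2 (8.57 FPKM, 6.99 to 9.89) in 5 of 6 libraries, and Chrm2 above Chrnb4 (6.36 FPKM, 5.64 to 7.06) in 6 of 6 with a small overlap. Below a clear gap came Chrm3 at 1.14 FPKM (0.865 to 1.43) and, again without overlap, Chrna4 at 0.503 FPKM (0.226 to 0.758). Chrna4 was above Chrna1 in 4 of 6 libraries.

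**Figure D1:**
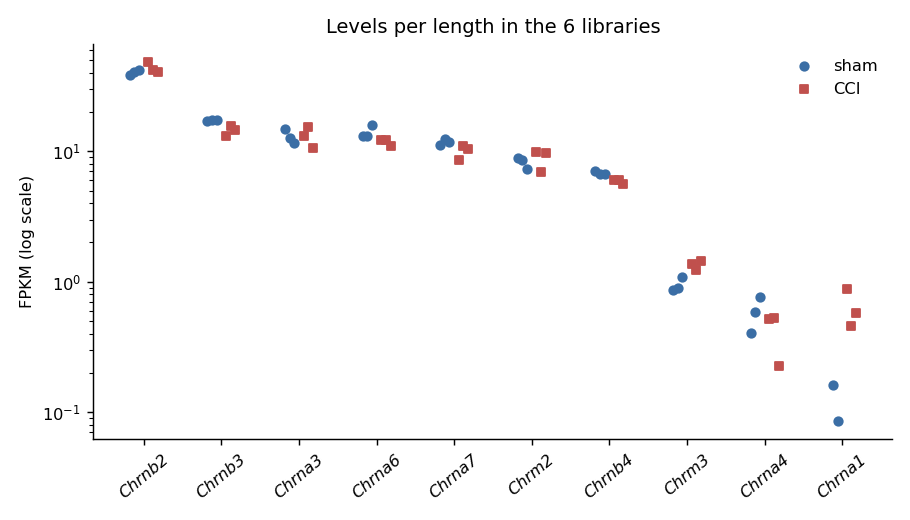
FPKM of each receptor gene in the 6 libraries on a log axis, ordered by mean, with circles for sham and squares for CCI rats. Chrnb2 stands apart at the top, the next 6 genes lie within a narrow band, and Chrm3, Chrna4 and Chrna1 lie lower. The Chrna1 value of Sham 1, listed at 0.0001 for a count of 0, is not drawn.

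The comparison of CCI with sham asks which of these genes changed at the cell bodies of a constricted nerve. Chrna1 rose, with a level of about 7.38 times that of sham, Chrm3 was somewhat higher, and Chrnb3, Chrnb4, Chrna6 and Chrna7 were lower by a log2 fold change of 0.23 to 0.28 in size. Chrna3, Chrna4, Chrnb2 and Chrm2 had no difference at an unadjusted p under 0.05. By the limits the study set, p under 0.05 before adjustment together with a log2 difference reaching 0.58 in size, 1 of 10 members was higher and 0 were lower. Among the 26663 rows tested, whose FPKM averaged 0.5 or more, 2.57% were higher and 1.26% lower by these limits. Chrna1 has a mean FPKM under 0.5 and took its values from the same fit on all 35757 rows with a count, of which 2.54% were higher.

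At an unadjusted p under 0.05 alone, 2 members were higher and 4 lower, against 5.57% and 5.18% of the tested rows. The same 2 members had all CCI libraries above all sham libraries, and the same 4 had all below, against 8.63% and 8.7% of the rows. None of the 10 passed a Benjamini-Hochberg adjusted p of 0.05 in edgeR's quasi-likelihood fit, where 0.0938% of the rows did. The count of 6 at the unadjusted limit fell to 2 without CCI 1, to 2 without CCI 3 and to 3 without Sham 3. The median log2 fold change was −0.12 over the 10 members and −0.25 over the 7 neuronal nicotinic subunits, of which 6 were below 0, and it was 0.0055 over all rows tested.

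**Figure D2:**
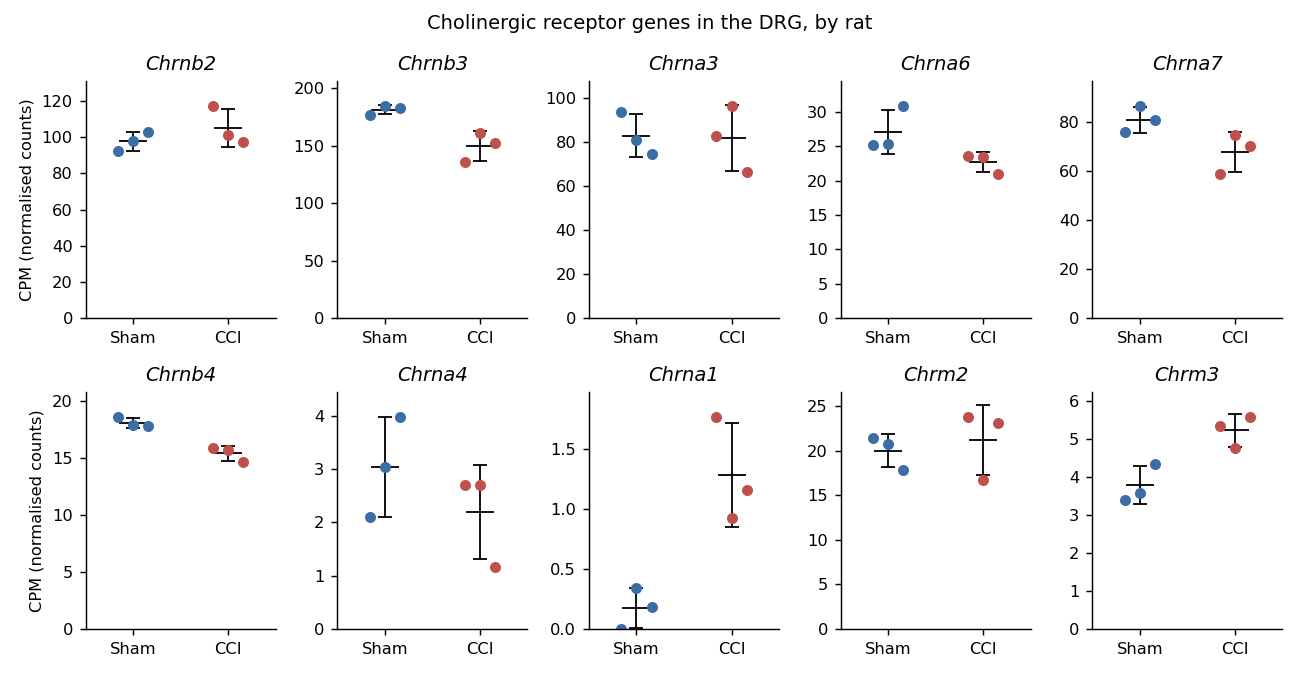
Normalised counts (CPM, counts scaled to library size) of each receptor gene in every rat, from 0, with the mean and SD of the 3 rats of each group. CCI points lie wholly below sham points for Chrnb3, Chrnb4, Chrna6 and Chrna7, wholly above for Chrna1 and Chrm3, and among them for the other genes.

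Chrna1, the alpha subunit of the muscle receptor (chr3:60445666-60460724, minus strand, in the files' build), had 144, 75 and 88 counts in CCI rats 1 to 3 and 0, 27 and 15 in sham rats 1 to 3. In CPM, counts scaled to library size, these were 1.77, 0.931 and 1.16 against 0.0, 0.341 and 0.182, where 3 counts, the limit that a count of 0 allows, are 0.0342 to 0.0394 CPM. All 3 CCI rats were above all 3 sham rats, and CCI 1 was the highest. The means were 1.29 ± 0.437 and 0.174 ± 0.17 CPM (SD, n = 3). The log2 fold change was 2.88 (SE 1.03, 95% interval 0.45 to 5.32), with an adjusted p of 0.469 by edgeR's quasi-likelihood test and an unadjusted p of 0.0265. The unadjusted p was 0.0738 without CCI 1 and 0.0634 without Sham 3, at log2 fold changes of 2.58 and 2.92 in edgeR. Over the 17 alternatives it stayed above 0, from 0.59 to 3.82.

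Since Chrna1 is a muscle gene, skeletal muscle markers were set beside it. Of 15 markers 12 had a row, and 7 were lower in CCI by the limits above, against 1.26% of tested rows. Only 2 of the 12 had all CCI libraries below all sham libraries, against 8.7% of tested rows. Without the joined row of Myh6 and Myh7, left out after its values were seen, the other 11 summed to 25.1, 14.4 and 9.18 CPM in CCI rats 1 to 3 and to 412, 12.5 and 52.8 CPM in sham rats 1 to 3. Muscle RNA was thus by far the highest in Sham 1, the library with a Chrna1 count of 0. The muscle factors Myog and Myod1 were at 0 in all CCI libraries and low in sham. Myog had 7, 0 and 0 counts and Myod1 19, 8 and 4 in sham rats 1 to 3. Atf3, a transcription factor induced in injured neurons, had 117, 67.4 and 53.8 CPM in CCI rats 1 to 3 and 6.32, 8.0 and 7.18 CPM in sham rats. Its log2 fold change was 3.47 with an adjusted p of 0.0296 in edgeR. The part of injured cells or of any other cell in the Chrna1 difference was not tested.

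**Figure D3:**
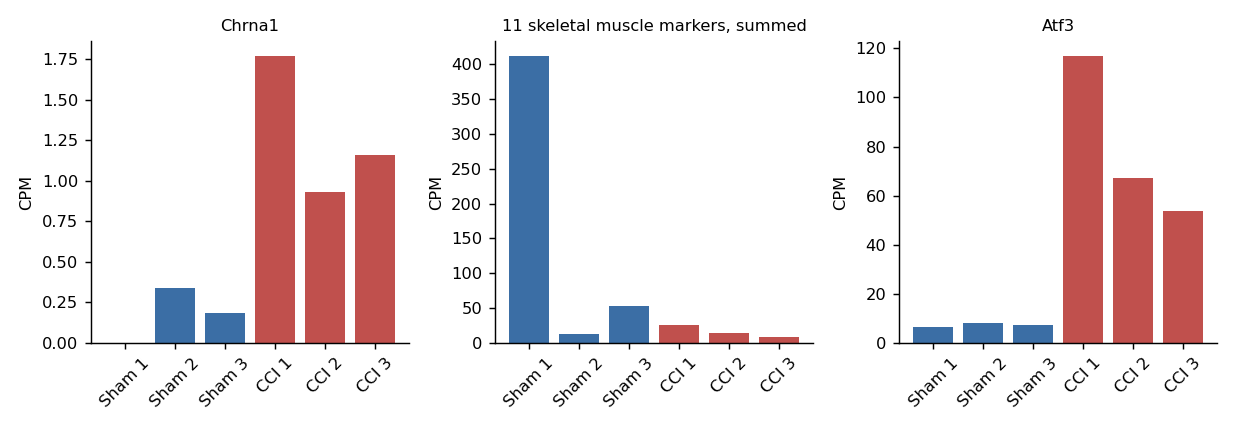
CPM of Chrna1, the summed CPM of 11 skeletal muscle markers and the CPM of Atf3 as bars from 0 in each of the 6 libraries. Sham 1 has the most muscle RNA at 412 CPM and a Chrna1 count of 0. Chrna1 and Atf3 are highest in CCI 1, while CCI 2 is above CCI 3 for Atf3 and below it for Chrna1.

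Neither of the other genes of the muscle type of receptor with counts passed the unadjusted limit. Chrnb1, its beta subunit, had 1.53 ± 0.346 CPM in CCI and 1.36 ± 0.633 CPM in sham rats, with a log2 fold change of 0.17. Chrne, the adult epsilon subunit, was the highest of the other nicotinic subunits at 5.07 FPKM. It had 1208, 602 and 805 counts in CCI and 888, 855 and 896 in sham rats, so that the CCI values lay on both sides of sham, and its log2 fold change was 0.05 (SE 0.24). Chrnd, the delta subunit, had a count of 0 in all 6 libraries, and Chrng, the fetal gamma subunit, had no row. None of the 5 proteins that cluster the receptor at the endplate passed the unadjusted limit, and Agrn, the secreted organiser of the endplate and the highest of them at 12.9 FPKM, had a log2 fold change of 0.07 (SE 0.05).

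Chrnb3, the accessory subunit (chr16:68871240-68916763, minus strand), was the member with the smallest p among those tested. It had 136, 161 and 152 CPM in CCI rats and 177, 184 and 183 CPM in sham rats. All CCI values were lower than all sham values, CCI 1 the most, and the sham rats lay close together. The means were 150 ± 12.7 and 181 ± 3.83 CPM (SD, n = 3), a sham level 1.21 times that of CCI. The log2 fold change was −0.28 (SE 0.07, 95% interval −0.45 to −0.10), with an unadjusted p of 0.00718 and an adjusted p of 0.261 in edgeR. It kept an unadjusted p under 0.05 under all 17 alternatives, between −0.33 and −0.21, and the smallest adjusted p among them was 0.0739, from DESeq2.

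Chrna6, the partner of Chrnb3, lies 4521 bases from it on the opposite strand (chr16:68860018-68866718). Its values were 23.6, 23.5 and 21.0 CPM in CCI and 25.2, 25.3 and 30.8 CPM in sham rats. The groups did not overlap, but CCI 1, CCI 2, Sham 1 and Sham 2 lay close together, and Sham 3 stood above the rest. The log2 fold change was −0.25 (SE 0.10), with an unadjusted p of 0.0473 and an adjusted p of 0.456 in edgeR. It passed the unadjusted limit in 9 of 17 alternatives and lay between −0.30 and −0.15 when 1 library was left out, the latter without Sham 3.

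Chrna7, the subunit of homomeric receptors with high calcium permeability (chr1:123896646-124039262, minus strand), had 58.7, 74.6 and 70.2 CPM in CCI rats. Sham rats had 75.8, 86.3 and 80.6 CPM. CCI 1 was the lowest, and the highest CCI value lay just under the lowest sham value. The log2 fold change was −0.25 (SE 0.10, 95% interval −0.50 to −0.01), with an unadjusted p of 0.0442 and an adjusted p of 0.447 in edgeR, and the unadjusted limit was passed in 10 of 17 alternatives. Without CCI 1 the log2 fold change was −0.16 with an unadjusted p of 0.0869 in edgeR, and it lay between −0.33 and −0.16 over the libraries left out.

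Chrnb4, which forms ganglionic receptors with Chrna3 (chr8:59609693-59629133, minus strand), had 15.9, 15.7 and 14.7 CPM in CCI and 18.6, 17.9 and 17.8 CPM in sham rats. Both groups were tight and did not overlap. The means were 15.4 ± 0.639 and 18.1 ± 0.41 CPM (SD, n = 3), and the log2 fold change was −0.23 (SE 0.07, 95% interval −0.40 to −0.05). The unadjusted p was 0.0185 and the adjusted p 0.347 in edgeR, and 14 of 17 alternatives passed the unadjusted limit.

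Chrna3 lies on the same strand as Chrnb4, with a gap of 2417 bases (chr8:59589907-59607275), and had no such difference. CCI rats had 82.8, 96.2 and 66.2 CPM and sham rats 93.5, 81.0 and 74.4 CPM. Both the lowest and the highest value belonged to CCI rats, and the log2 fold change was −0.02 (SE 0.15, 95% interval −0.38 to 0.34), which leaves room for a difference of the size seen for Chrnb4 in either direction. Chrna5, an accessory subunit, overlaps the Chrna3 row by 111 bases on the opposite strand. It had 10.2 ± 0.79 CPM in CCI and 11.3 ± 1.57 CPM in sham rats (SD, n = 3), with a log2 fold change of −0.14. The library kit kept strand, but its use in counting is not stated, so reads in the shared bases may count for either gene.

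Chrna4 and Chrnb2 together form the most common nicotinic receptor of the brain. Chrnb2 (chr2:189088570-189096785, minus strand) had 117, 101 and 97.6 CPM in CCI and 92.3, 98.1 and 103 CPM in sham rats, with CCI 1 the highest and the other values mixed. Its log2 fold change was 0.10 (SE 0.08, 95% interval −0.10 to 0.31), an interval that includes no decrease as large as the −0.28 of Chrnb3. A second Chrnb2 row of the same region (chr2:189086254-189088573), given on the plus strand, overlapped the first by 4 bases. It held more counts in every library, 9809 to 11471 against 7420 to 9470 in the first row. The second row had a log2 fold change of 0.11 (SE 0.08). Chrna4 (chr3:176527516-176548208, minus strand) was low, with 220, 218 and 89 counts in CCI and 185, 242 and 329 in sham rats. CCI 3 was the lowest and Sham 3 the highest, and the other 4 libraries were mixed. Its log2 fold change of −0.47 (SE 0.39, 95% interval −1.41 to 0.46) had the widest interval of the 9 members tested. When 1 library was left out it lay between −0.68 (without Sham 1) and −0.17 (without CCI 3), and it was −0.23 without Sham 3.

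**Figure D4:**
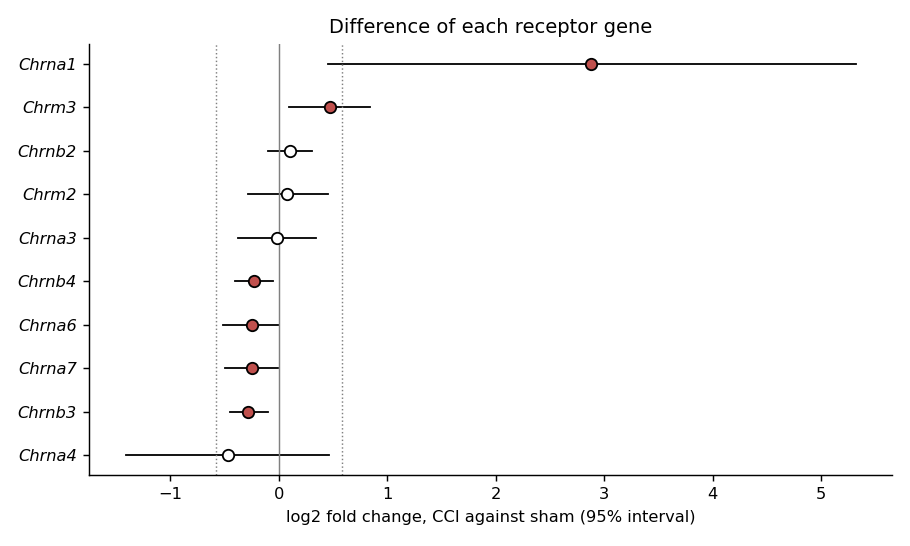
Log2 fold change of each receptor gene, CCI against sham, with its 95% interval. Filled points had an unadjusted p under 0.05 and dotted lines stand at 0.58 on either side, which Chrna1 alone passes. The lower group of Chrnb4, Chrna6, Chrna7 and Chrnb3 sits near −0.25.

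Of the muscarinic receptors, Chrm3 (chr17:63990599-63994169, minus strand) had 433, 383 and 424 counts in CCI and 298, 284 and 358 in sham rats. In CPM these were 5.34, 4.75 and 5.57 against 3.4, 3.58 and 4.34. All CCI rats were above all sham rats, with Sham 3 the nearest to CCI. The means were 5.22 ± 0.422 and 3.77 ± 0.497 CPM (SD, n = 3), and the log2 fold change was 0.47 (SE 0.16, 95% interval 0.09 to 0.84). The unadjusted p was 0.0217 and the adjusted p 0.36 in edgeR, and 10 of 17 alternatives passed the unadjusted limit. The unadjusted p in edgeR was 0.0505 without CCI 1, 0.0658 without CCI 3, 0.0664 without Sham 1 and 0.0616 without Sham 2. Without Sham 3 the log2 fold change was 0.58 and Chrm3 passed both limits.

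Chrm2 (chr4:64088900-64091090, plus strand) had 23.8, 16.7 and 23.1 CPM in CCI and 21.4, 20.8 and 17.9 CPM in sham rats. The lowest value and the 2 highest were all of CCI rats, so the groups overlapped. The log2 fold change was 0.08 (SE 0.15, 95% interval −0.28 to 0.45), and a second row of the symbol, 1892 bases further on the same strand, had 0.19 (SE 0.13). Of the other muscarinic receptors, Chrm4 was the highest at 0.558 FPKM, with 123 to 166 counts a library, and had a log2 fold change of 0.01 (SE 0.20). Chrm1 was near the limit of detection, with 4, 8 and 0 counts in CCI and 7, 0 and 4 in sham rats.

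Beside the members, 52 other cholinergic genes were listed, of which 50 had a row, 48 had counts and 38 were tested. By both limits 1 was higher, Plcb2, and 0 were lower, against 2.54% of all rows with a count that were higher and 1.26% of tested rows that were lower. The median log2 fold change was −0.05. At the unadjusted limit alone, which 5.57% of tested rows passed as higher and 5.18% as lower, the genes were Plcb2 and Gnai2, higher, and Gnai1, lower, all of the 17 genes of muscarinic transduction. Plcb2, a phospholipase C of blood cells, had 167, 185 and 183 counts in CCI and 133, 86 and 70 in sham rats, with no overlap. Its log2 fold change was 0.97 (SE 0.26) with an adjusted p of 0.331 in edgeR's fit on all rows with a count, since it lies under 0.5 FPKM. Gnai2, a Gi subunit and the highest of the list at 84.9 FPKM, had 214 ± 7.83 CPM in CCI and 197 ± 3.75 CPM in sham rats (SD, n = 3), a log2 fold change of 0.12. Gnai1, another Gi subunit, had 40.7 ± 2.6 and 48.2 ± 0.733 CPM (SD, n = 3), a log2 fold change of −0.24. Of 10 macrophage markers 3 were higher by both limits, Cd68, Csf1r and Cx3cr1, and 7 were not. The 10 summed to 153, 139 and 112 CPM in CCI rats 1 to 3 and to 89.6, 84.7 and 108 CPM in sham rats. Plcb2 had 2.06, 2.3 and 2.41 CPM in CCI and 1.52, 1.09 and 0.848 CPM in sham rats. The part of macrophages in the Plcb2 value was not tested.

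None of the 7 genes of acetylcholine synthesis, transport and breakdown with counts, of 8 listed, passed the unadjusted limit in edgeR, nor did any of the 10 chaperones and prototoxins of nicotinic receptors with a row, of 11 listed. Slc44a1, a choline transporter, was the highest of the first list at 51.4 FPKM, with a log2 fold change of 0.09 (SE 0.06). The levels of 3 genes that define cholinergic neurons, named after their values were seen, were unlike each other. Chat, the enzyme that makes acetylcholine, had 8, 3 and 0 counts in CCI and 0, 7 and 0 in sham rats, and Slc18a3, the vesicular acetylcholine transporter, had 0 in all. Slc5a7, the high-affinity choline transporter, had 576 to 797 counts in the 6 libraries and a mean of 1.55 FPKM, with 8.15 ± 0.624 CPM in CCI and 8.96 ± 1.26 CPM in sham rats (SD, n = 3) and a log2 fold change of −0.14 (SE 0.14). Lynx1, a prototoxin that binds nicotinic receptors, was the highest of the second list at 67.3 FPKM, with a log2 fold change of −0.11 (SE 0.06).

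The 4 lower subunits were read beside markers of sensory neurons, though bulk samples do not show which cells carry them. Over 11 sensory neuron markers the median log2 fold change was 0.04. At the unadjusted limit 2 were higher, Tubb3 (0.31) and Prph (0.25), and 2 lower, Nefh (−0.54) and Snap25 (−0.39). Of all tested rows, 5.57% were higher and 5.18% lower at this limit, which also holds for the counts below. The sum of the 11 sensory neuron markers was 9710 to 9970 CPM in CCI and 9460 to 10800 CPM in sham rats. Nefh was a large part of it, with means of 2390 CPM in CCI and 3490 CPM in sham rats. Over 9 nociceptor markers the median was −0.15, with 1 higher and 4 lower, and sums of 2250 to 2550 CPM in CCI and 2370 to 2740 CPM in sham rats. Over the 6 markers of large neurons with a row the median was −0.26, with 3 lower, and sums of 2500 to 4070 and 3280 to 5170 CPM. By both limits 0 of the sensory and nociceptor markers were called. Of the large neuron markers 1 was lower by both limits, against 1.26% of tested rows. This was Pvalb, a calcium-binding protein of proprioceptors, with a log2 fold change of −0.69 (SE 0.13). The part of these neurons' RNA in the values of the 4 subunits was not tested. Among markers of autonomic neurons, Hand2 was at 0 in all libraries and Dbh had at most 8 counts, but Th had 38, 38 and 45 counts in CCI and 77, 64 and 50 in sham rats. Th, the enzyme that starts catecholamine synthesis, thus had all CCI rats below all sham rats, with a log2 fold change of −0.58 (SE 0.32) and an unadjusted p of 0.11 in edgeR. Slc18a2, the vesicular monoamine transporter, had 900 to 1304 counts and a log2 fold change of 0.09 (SE 0.14).

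All 10 injury-induced neuronal genes were higher by both limits, against 2.57% of tested rows, and 3 had an adjusted p under 0.05 in edgeR. The study had reported each as higher from these same libraries, so this count was known when the list was made. They summed to 563 to 913 CPM in CCI and to 243 to 255 CPM in sham rats. Among the other marker lists, 2 of 5 T cell markers with counts were higher by both limits, Cd4 and Cd8a. Of all rows with a count, 2.54% were higher. Cd8a was near the floor, with 1, 4 and 19 counts in CCI rats 1 to 3 and 0 in sham rats, and the Cd3 genes were near 0. Of 8 Schwann cell markers 1 was lower (Pmp2), against 1.26% of tested rows. By both limits 0 satellite glia, B cell, endothelial, mural, fibroblast, erythrocyte or adipocyte markers were called.

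The genes most like Chrnb3 over the 6 libraries were sought among 13711 protein-coding rows, as the smallest mean absolute difference in log2 CPM after each gene was centred on its own mean. Among the 5 nearest were Pfkm at 0.013, Fam217b at 0.019, Arhgef4 at 0.023 and Ndufb8 at 0.024. The log2 fold changes of these 4 genes were between −0.27 and −0.23, close to that of Chrnb3 by the way they were chosen.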

How the data were processed

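RNA of the L4 to L6 DRG of 3 CCI and 3 sham rats was sequenced by the authors, aligned with HISAT2 2.0 and assembled with StringTie 1.3.0, with versions as the labels' processing notes give them. The methods name the genome by a version number and no assembly, so coordinates are given as in the files. The deposited table holds a raw read count and an FPKM value (fragments scaled by row length and library size) for each gene row and library, both as the authors made them, with an FPKM of 0.0001 at a count of 0. Of its rows 6849 have no symbol and take 5.37% to 5.72% of the counts, which stayed in the library sizes since they are assembled loci.

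Counts were tested with edgeR 4.0.16 (R 4.3.3) by the quasi-likelihood test with TMM factors, without covariates, on rows whose FPKM averaged 0.5 or more, and p-values were adjusted by the Benjamini-Hochberg method over all rows tested. Genes under this filter took values from the fit with no filter. CPM are counts per 1e6 of the TMM-scaled library. Intervals at 95% use the total degrees of freedom of the moderated fit, and they and the zero-count limits of 3 counts cover, respectively, the spread between libraries and counting error only. An exact permutation test of 3 against 3 rats cannot go below 0.1 and was not used. Alternatives were DESeq2 1.42.0, edgeR's exact test, limma 3.58.1 on log2(FPKM + 0.1) and log2(FPKM + 1), RLE scaling, other filters, protein-coding rows, summed rows of a symbol, a replicate block and leaving out each library. The scripts were tested on simulated data with 200 changed rows.

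Members and gene lists were chosen with earlier results of these data known. All members are named. Of each other cholinergic list, the genes past both limits and the one with the highest mean FPKM are named, and others where said. The genes most like a member were taken for the tested member with the smallest p, and 1 of the 5 is not reported here.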

Additional observations from a re-analysis of the deposited data

How the results depend on the processing

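No member was called lower, and none passed an adjusted p of 0.05, under any of the 17 alternatives. The 6 members at an unadjusted p under 0.05 became 2 by edgeR's exact test and 2 to 5 when 1 library was left out. The 1 member called higher became 0 with the replicate block and 0 to 1 when 1 library was left out. With Sham 3 left out the member called was Chrm3, not Chrna1. Chrna3, not called, turned to 0.11 without CCI 3 and 0.07 without Sham 1 and lay between −0.15 and 0.11 when 1 library was left out, and Chrm2, also not called, turned to −0.01 without CCI 1 and lay between −0.01 and 0.23. Of the other cholinergic genes, the 3 at the unadjusted limit became 1 by the exact test and 2 to 5 when 1 library was left out, the 1 called higher became 0 by limma on log2(FPKM + 1) and 1 to 2 when 1 library was left out, and the 0 called lower became 0 to 2. The 5 came without CCI 3 and without Sham 1, the 2 higher (Plcb2 and Lypd1) without Sham 2, and the lower calls were Dok7 and Lypd6b without CCI 3 and Slurp1 without Sham 1. Over all rows, the 25 with an adjusted p under 0.05 became 751 by DESeq2, 237 by the exact test, 76 over protein-coding rows, 0 with the replicate block and 6 to 61 when 1 library was left out. They were 61 without CCI 1, 6 without CCI 2, 38 without CCI 3 and 8 without Sham 1. The 686 higher and 336 lower rows became 410 and 161 by limma on log2(FPKM + 1), and 353 and 115 over protein-coding rows. The cause was not tested. The replicate numbers did not pair the rats: the deviations of same-numbered libraries from their group means correlated at −0.00829, −0.017 and −0.0529, and 0 of 6 libraries were closest to their own number. With the replicate block Chrna1 had a log2 fold change of 3.24 and an unadjusted p of 0.0593 in edgeR. With 3 rats per group the intervals of Chrna4 and Chrna1 are wide, and low counts limit Chrna1 in sham rats.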

Other observations

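Ratios of FPKM within a library, chosen after the values were seen, set pairs of subunits against each other. Chrna7 against Chrnb2 was 0.231 ± 0.0464 in CCI and 0.293 ± 0.0173 in sham rats (SD, n = 3), and Chrnb3 against Chrnb2 was 0.333 ± 0.0547 and 0.429 ± 0.0164, both with all CCI rats below all sham rats. Chrna7 and Chrnb3 were already separated this way in CPM, so these ratios are not separate evidence. For the neighbours Chrnb3 and Chrna6 the ratio was 1.22 ± 0.138 in CCI and 1.25 ± 0.128 in sham rats, and for Chrna3 and Chrnb4 it was 2.2 ± 0.337 and 1.91 ± 0.18, with overlap in both. Chrm2 against Chrm3 was 6.6 ± 0.778 and 8.85 ± 1.86, also with overlap.

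The nicotinic subunits Chrna9, Chrna10 and Chrna2 had low counts. Chrna9 had 12 in Sham 1 and 0 elsewhere, Chrna10 had 4, 0 and 0 in CCI and 5, 8 and 0 in sham rats, and Chrna2 had 29, 31 and 14 in CCI and 13, 32 and 42 in sham rats. Chrm5, a Gq-coupled muscarinic receptor, had 73, 43 and 31 counts in CCI and 68, 42 and 49 in sham rats.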
